A study of Homo sapiens with 12 samples.

Results

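A549 cells exposed for 24 h to a low dose of cisplatin were compared with A549 cells left untreated for 24 h. The comparison takes 6 of the 12 arrays of the series, 3 for each condition, and every one of the 14232 genes that the probe annotation pairs with a single symbol. The line came from a human lung adenocarcinoma. All wells were seeded a day before treatment, and the treated wells then received cisplatin at its IC10, the concentration that inhibits by 10%, which the study calls the no-observed-effect level (NOEL); the untreated wells received no drug. The other 6 arrays hold the same pair of conditions at 48 h. The study describes independent experiments, but the labels do not say which arrays share one, so the p-values measure the spread between these arrays, and the whole comparison rests on 1 cell line.

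Cisplatin is a platinum compound that binds to purine bases and crosslinks DNA. Cells with such damage stabilise the transcription factor p53, which A549 cells carry in its normal form, and p53 switches on genes that halt the cell cycle, repair DNA, adjust metabolism or start apoptosis, together with genes that switch p53 off again. Crosslinks within a strand are removed by nucleotide excision repair or bypassed by translesion polymerases, and crosslinks between strands need recombination as well.

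Levels of different probes cannot be compared on these arrays, so markers of cell types are given only as differences between the groups. With 12 arrays none of the 8 measured epithelial, 7 fibroblast, 8 endothelial or 6 alveolar type II markers passed an unadjusted p under 0.05, and without untreated replicate 3 the epithelial tight junction gene CLDN4 did (0.46 ± 0.21, SE, on the log2 scale). Of the 8 leukocyte markers only MS4A1 passed with 12 arrays (-0.72 ± 0.30), and it did not pass without untreated replicate 3 (-0.36 ± 0.27). A single array stood apart. Untreated 24 h replicate 3 had a mean Pearson correlation of 0.972 with the other 11 arrays, against 0.987 to 0.990 for each of those, and a line through its values against their mean had a slope of 0.879. Its log2 values had an SD of 2.12, against 2.24 to 2.33 on the other arrays. Bright genes tended to read lower on it than on other arrays, and dim genes higher. Per the study's methods a sample set of this time point was dropped from its analysis after multidimensional scaling; the set is not named, and whether it is this array is not stated. The counts over all genes and over the p53 targets are given with and without it. An exact permutation test of 3 against 3 arrays cannot give a two-sided p below 0.1, so single genes are given with the standard error (SE) of the limma fit, and a gene is said to pass where its unadjusted p was under 0.05 unless another threshold is named.

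A single gene passed an adjusted p under 0.05 (limma, Benjamini-Hochberg), which is 0.00703% of the genes tested. This was CDKN1A, which encodes p21, the inhibitor of cyclin-dependent kinases. Its log2 signal was 10.02, 9.75 and 9.39 in untreated replicates 1, 2 and 3 and 10.79, 11.12 and 10.93 in the cisplatin replicates. The groups did not overlap, and the lowest untreated value was that of replicate 3. CDKN1A rose 2.34-fold, from 9.72 ± 0.32 to 10.95 ± 0.16 (SD, n = 3), with a log2 change of 1.23 ± 0.15 (SE, adjusted p = 0.0158). Without untreated replicate 3 the change was 1.06 ± 0.13, or 2.09-fold, and the adjusted p was 0.0314. The adjusted p rose above 0.05 when untreated replicate 2 or any 1 of the 3 cisplatin arrays of 24 h was left out, reaching 0.178 at most, while the unadjusted p stayed at or below 1.25e-05. With only the 6 arrays of 24 h in the fit no gene passed an adjusted p under 0.05 (limma, smallest adjusted p = 0.504), and none did with the replicate number as a block when untreated replicate 3 was left out (smallest adjusted p = 0.0877).

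At the unadjusted p under 0.005 that the study used as its threshold, 32 genes were higher after cisplatin (0.225% of genes tested) and 5 were lower (0.0351%). Together these 37 genes are fewer than such a threshold passes when p-values are spread evenly. Without untreated replicate 3 the counts were 21 and 1, and 19 of the 21 higher genes were among the 32. At an unadjusted p under 0.05, 271 genes were higher (1.9%) and 165 lower (1.16%), together 3.06% of the genes tested, less than the 5% that such a threshold passes when p-values are spread evenly. Without that array the counts were 122 (0.857%) and 55 (0.386%). Centring each array on its median gave 151 higher and 277 lower genes at the same threshold, so the balance of directions among these weaker differences depended on the scaling.

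The fold changes of the 32 higher genes ran from 1.26 to 2.34, with a median of 0.57 on the log2 scale. Of them, 18 belong to lists of genes that p53 is known to induce, which together have 60 measured members of 70 listed, among 14232 genes tested. Because the lists were written with results of these arrays known, this overlap is a description and not independent evidence. In all 32 the cisplatin arrays lay above the untreated ones, a separation that choosing them by their p on these arrays favours. Of all genes, 5.94% showed the same separation. Untreated replicate 3 gave the lowest untreated value in 26 of the 32 (81.2%), against 50.6% of all genes, and without it the effects had a median of 86.0% of their size with 12 arrays.

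**Figure D1:**
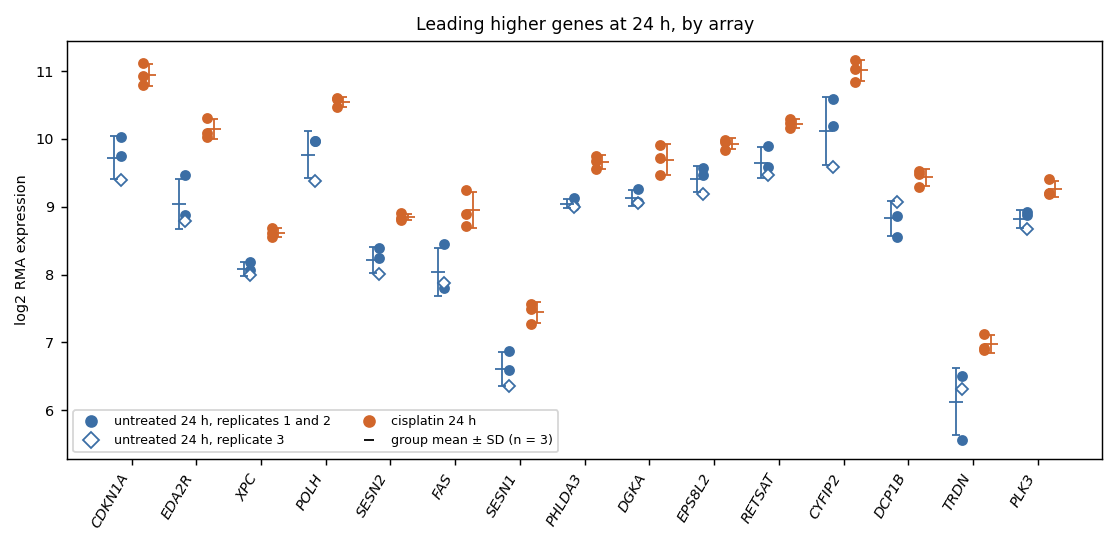
Log2 RMA expression at 24 h of the 15 higher genes with the smallest p among those whose groups do not overlap, with 3 untreated arrays (blue, replicate 3 as open diamonds) and 3 cisplatin arrays (orange) for each gene; the bars beside the points are the group mean ± SD (n = 3). In CYFIP2 and POLH untreated replicate 3 lies well below the other untreated arrays, whereas in XPC and PHLDA3 the untreated arrays lie close together.

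Among the p53 targets that slow the cell cycle, 4 of 6 were higher at an unadjusted p under 0.05, and the same number without untreated replicate 3. Beside CDKN1A these were PLK3, a polo-like kinase of the stress response (0.44 ± 0.11 on the log2 scale, SE), GADD45A, which slows entry into mitosis and takes part in repair (0.52 ± 0.16), and SFN, or stratifin, which keeps mitotic kinases out of the nucleus (0.39 ± 0.14). PLK2, a kinase related to PLK3, had a difference of 0.25 ± 0.15 and E2F7, a repressor of cell cycle genes, of 0.17 ± 0.13, and neither passed.

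Genes that feed back on p53 were positive in 6 of 6 cases, with 3 past the threshold, and in 5 of 6, with 2 past it, without untreated replicate 3. MDM2, the ubiquitin ligase that marks p53 for degradation, read 11.09, 10.71 and 10.47 in the untreated and 11.21, 11.36 and 11.38 in the cisplatin arrays. Untreated replicate 1 was close to the lowest treated array, and the change was 0.56 ± 0.16 with 12 arrays and 0.42 ± 0.15 without untreated replicate 3. TP53INP1, a cofactor of p53 phosphorylation and of autophagy, was 1.88-fold higher, and CCNG1, which encodes cyclin G1 and activates MDM2, was higher by 0.42 ± 0.15 but did not pass without untreated replicate 3 (0.27 ± 0.14). MDM4, a relative of MDM2 that also restrains p53, had a difference of 0.18 ± 0.17, or -0.01 ± 0.15 without that array, and did not pass.

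Of the 19 measured p53 targets of cell death, 17 were positive and 9 passed the threshold, 5 without untreated replicate 3. EDA2R and FAS had the largest differences of this list. EDA2R, the ectodysplasin A2 receptor of the TNF receptor family, read 9.46, 8.88 and 8.79 in untreated cells and 10.09, 10.03 and 10.31 after cisplatin. Its lowest treated array was above its highest untreated one by more than the spread among the treated arrays, and it was 2.14-fold higher (1.10 ± 0.18, adjusted p = 0.158). FAS, the receptor of the FAS ligand, which recruits initiator caspases, read 8.45, 7.80 and 7.87 in untreated arrays and 8.72, 8.90 and 9.24 in treated ones. Its difference was 0.91 ± 0.19 (adjusted p = 0.647), and untreated replicate 1, not replicate 3, was the array nearest to the treated group.

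BAX, the pore-forming protein of the mitochondrial pathway, was higher by 0.49 ± 0.13, and its relative BAK1 by 0.37 ± 0.15. TNFRSF10B, a receptor of TRAIL, was higher by 0.30 ± 0.11, while the TRAIL receptors TNFRSF10A, TNFRSF10C and TNFRSF10D had differences of 0.21, -0.13 and 0.25 and did not pass. PMAIP1, which encodes the BH3-only protein NOXA, was higher by 0.43 ± 0.19, but BBC3, which encodes the related PUMA, had a difference of 0.08 ± 0.15. TP53I3, TNFSF9 and APAF1 complete the 9. Without untreated replicate 3, BAK1, TNFRSF10B, PMAIP1 and APAF1 did not pass, at differences of 0.31, 0.22, 0.33 and 0.20.

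Repair genes under p53 control separated into a part that differed and a part that did not. XPC, which finds distorted DNA and starts nucleotide excision repair, read 8.19, 8.07 and 8.0 untreated and 8.69, 8.56 and 8.61 after cisplatin. The arrays of a group lay close together, and the change was 0.54 ± 0.11, or 0.49 ± 0.11 without untreated replicate 3. POLH, the translesion polymerase that copies past bulky adducts, read 9.97, 9.97 and 9.37 untreated and 10.58, 10.60 and 10.47 treated. Its change of 0.78 ± 0.16 was 0.58 ± 0.12 without the low untreated array. DDB2, the damage sensor that works with XPC, was higher by 0.61 ± 0.16, and RRM2B, the ribonucleotide reductase subunit that p53 induces, by 0.41 ± 0.17, though it did not pass without untreated replicate 3 (0.30 ± 0.17). POLK, MGMT and FANCC had differences of 0.11, -0.02 and -0.06 with 12 arrays and did not pass. FANCC was the only member of the 6 p53 lists to pass in the other direction in the fit without untreated replicate 3 (-0.26 ± 0.09).

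Metabolic targets were higher in 7 of 9 cases, 4 of 9 without untreated replicate 3. The sestrins SESN1 and SESN2, which restrain mTORC1 signalling, were 1.78-fold and 1.55-fold higher. SESN1 had values of 6.87, 6.60 and 6.36 untreated and 7.50, 7.56 and 7.27 treated, and SESN2 of 8.25, 8.40 and 8.01 untreated and 8.83, 8.91 and 8.81 treated. ISCU (iron-sulfur cluster assembly), SPATA18 (turnover of damaged mitochondria), TIGAR (fructose bisphosphatase), NADSYN1 (NAD synthesis) and PRKAB1 (an AMPK subunit) were higher by 0.30 to 0.48, of which TIGAR, NADSYN1 and PRKAB1 did not pass without untreated replicate 3 (0.27, 0.21 and 0.13). The carnitine palmitoyltransferase gene CPT1C had a difference of -0.05 ± 0.13.

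The group of signalling and membrane targets had the largest median of the 6 lists, 0.57, with 8 of 13 members higher, 7 without untreated replicate 3. PHLDA3, which blocks AKT at the membrane, read 9.12, 9.01 and 9.00 untreated and 9.56, 9.75 and 9.68 treated (0.62 ± 0.14). DCP1B, a cofactor of mRNA decapping, was higher by 0.60 ± 0.15, and by 0.72 ± 0.15 without untreated replicate 3, which was the highest array of its untreated group. CYFIP2, a part of the WAVE complex of actin assembly, went the other way: its untreated values were 10.59, 10.19 and 9.59, and its change was 0.89 with 12 arrays and 0.62 without replicate 3. DGKA, a lipid kinase, NINJ1, a protein of plasma membrane rupture, SULF2, an extracellular heparan sulfatase, ANKRA2, an ankyrin repeat protein, and TP53I11 were higher by 0.30 to 0.77, and TP53I11 did not pass without untreated replicate 3 (0.18). For RPS27L, a ribosomal protein-like p53 target, the difference of 0.70 ± 0.39 did not pass and was 0.15 ± 0.30 without that array.

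**Figure D2:**
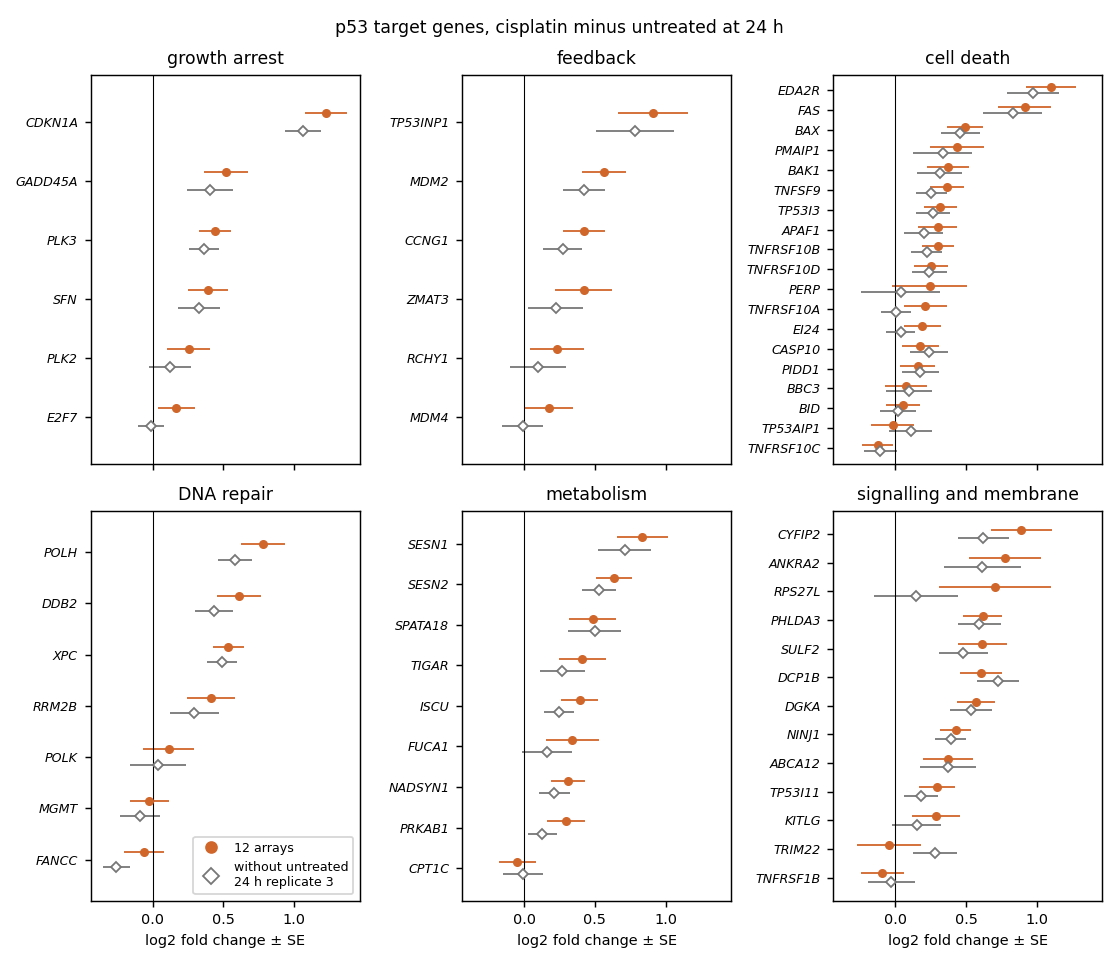
Log2 fold change (cisplatin minus untreated at 24 h) ± SE of the 60 measured members of the 6 p53 lists, grouped by role, from all 12 arrays (orange circles) and without untreated 24 h replicate 3 (grey diamonds). Most points lie right of 0 in both fits, and CDKN1A and EDA2R lie farthest to the right.

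Over the 60 members, 53 were positive with a median of 0.37, and 35 passed in the direction of higher expression and 0 in the other, beside 1.9% and 1.16% of all genes and a median over all genes of 0.03. Without untreated replicate 3, 53 were positive with a median of 0.26, and 25 were higher and 1 lower. These 25 were all among the 35. The lists were put together with results of these arrays known, so their counts describe the comparison and are not independent evidence. Leaving out the members that the study's own table of over-expressed genes holds left 31 genes, of which 24 were positive and 10 higher at an unadjusted p under 0.05, with a median of 0.23, and of 0.13 with 6 higher without untreated replicate 3. These 31 come from the same lists and are not independent evidence either.

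Of the higher genes outside these lists, EPS8L2, a relative of the actin regulator EPS8, was higher by 0.52 ± 0.12, RETSAT, which saturates retinol, by 0.58 ± 0.14, and HSPA4L, a relative of the heat shock chaperones, by 0.60 ± 0.17. TRDN, which encodes triadin of the muscle calcium release complex, was higher by 0.85 ± 0.21. The other 10, chosen after their values were seen, were RNF19B, STOM, FBXO22, TSPAN1, FHL3, NTPCR, LOC401261, SERTAD1, RTN4RL1 and TMEM150A, with changes of 0.33 to 0.57.

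To show what the leading genes hold near their start sites, the 250 bases before each annotated start were searched for the p53 half-site, the consensus that p53 binds in pairs, on either strand (it reads the same on both). Of the 32 higher genes, 27 had at least 1 window, and 5 of their 49 windows (10.2%) held a half-site, beside 5.16% of the 16426 windows of all genes tested. No window of these genes held a pair of exact matches at the usual spacing. Only exact matches were counted, so a second half-site with mismatches, also one beside a printed half-site, would be missed. The sequences, from RefSeq on GRCh38.p14, run 5′ to 3′ on the gene's strand, with the half-site in capitals and 10 bases on either side.
EPS8L2, chr11:720505-720534, plus strand: cctgtgctccAGGCTTGTCCacagctccgg
FAS, chr10:88991299-88991328, plus strand: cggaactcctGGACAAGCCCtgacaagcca
HSPA4L, chr4:127783499-127783528, plus strand: tatgtcatggAAACATGTTTccacatgttc
RETSAT, chr2:85354569-85354598, minus strand: actggagagcGAACTAGCCCgggcggagcc
SESN1, chr6:109009018-109009047, minus strand: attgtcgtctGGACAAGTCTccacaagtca
The half-sites of these genes begin 125, 122, 14, 60 and 49 bases before an annotated start. A match is a description of the letters and not a measured binding site, and p53 sites farther away, such as the one known upstream of CDKN1A, lie outside these windows.

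The 5 lower genes were all below the median level of the genes tested, and their values rested more on single arrays. H2BC10, a replication-dependent histone H2B gene, read 3.80, 5.17 and 5.99 untreated and 3.84, 3.26 and 2.88 treated, so that the groups overlapped. Its change was -1.66 ± 0.39 and -1.16 without untreated replicate 3. MC4R, a melanocortin receptor chosen here after its values were seen, also overlapped between groups, with 5.69, 4.89 and 6.02 untreated and 4.95, 3.68 and 4.61 treated. CHST1, a carbohydrate sulfotransferase (-0.70 ± 0.20), ZBTB43, a zinc finger protein (-0.44 ± 0.13), and the olfactory receptor OR5AP2 (-0.51 ± 0.15) did not overlap. In all 5 untreated replicate 3 was the highest untreated array. Past these 5, the lower genes with the smallest p and no overlap were PCDHB4, OR51I2, ZNF677, FAM222A-AS1, CCL19, MAPK4 and TRAT1, at changes of -0.40 to -0.52, and 1.51% of all genes were lower without overlap.

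Across all genes the size and sign of the 24 h difference went with the level of a gene on the arrays. With the genes in 4 equal bins by signal, the median change was -0.11 in the lowest bin and 0.10 and 0.09 in the upper pair, and without untreated replicate 3 these medians were 0.00, 0.02 and -0.00. At an unadjusted p under 0.05, the lowest bin held 16 higher genes and 125 lower ones and the highest bin 89 and 0; without that array the counts were 24 and 23, and 40 and 7. Olfactory receptors, taken here as genes not expected in lung cells, followed the same course. Of these, 52 of 220 were positive, 2 were higher and 16 lower, at a median of -0.16. Without untreated replicate 3 their median was 0.02 with 3 higher and 3 lower.

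**Figure D3:**
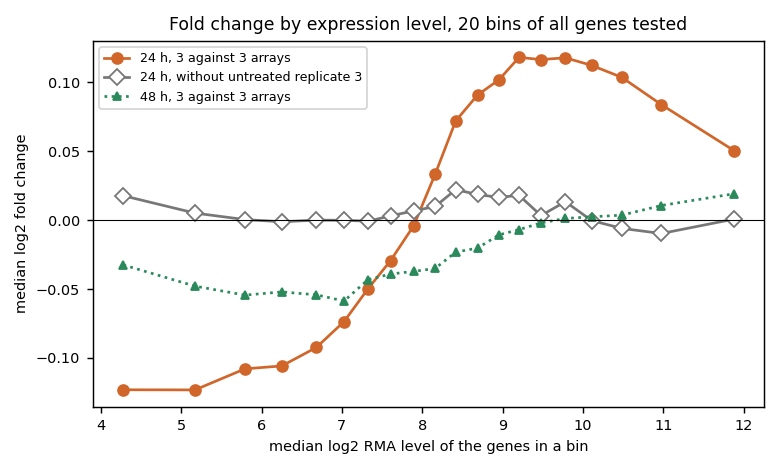
Median log2 fold change of the genes in 20 bins of equal size, against the median log2 RMA level of each bin, for 24 h with 3 arrays per group (orange), 24 h without untreated replicate 3 (grey) and 48 h (green). The 24 h medians run from below -0.1 in the dimmest bins to above 0.1 at levels of about 9 to 10, and lie close to 0 without untreated replicate 3.

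Lists that cover the rest of the damage response showed few differences. Of 17 nucleotide excision repair genes, all 17 were positive with 12 arrays but 9 without untreated replicate 3, and only XPC and DDB2 passed an unadjusted p under 0.05. Translesion synthesis had 2 of 9 past the threshold, POLH and REV3L, the catalytic subunit of polymerase zeta (0.46 ± 0.17, and 0.25 ± 0.14 without untreated replicate 3, which did not pass). With 12 arrays none of 20 crosslink and recombination repair genes, 13 checkpoint kinase genes or 18 genes of base excision, mismatch repair and end joining passed, with medians of 0.03, 0.04 and 0.08. Beside CDKN1A, no member of the 7 measured cyclin-dependent kinase inhibitors passed; CDKN1B, which encodes p27, had a difference of 0.29 ± 0.17.

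Proliferation genes showed few differences that passed. With 12 arrays none of 33 DNA replication genes and 14 regulators of the G1/S step passed in either direction, and of 34 mitosis genes CDC25C, the phosphatase that activates CDK1, was the only one (0.44 ± 0.17, and 0.21 ± 0.13 without untreated replicate 3, which did not pass). The medians of these lists were 0.03, 0.05 and 0.09, and -0.08, -0.03 and 0.00 without untreated replicate 3. With 12 arrays 20 of 33, 11 of 14 and 31 of 34 were positive, beside 8245 of all 14232 genes. Without untreated replicate 3 the numbers were 6, 6 and 18, beside 7465 of all genes. With 3 arrays per group the counts of genes that passed do not show that the levels were equal.

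Stress and metabolic lists gave single genes. Of all genes, 1.9% passed as higher with 12 arrays and 0.857% without untreated replicate 3. In the integrated stress and unfolded protein response 20 of 21 were positive with 12 arrays and 16 of 21 without untreated replicate 3. Among all 14232 genes tested, 8245 and 7465 were positive in these 2 fits. The list had a median of 0.18 with 12 arrays, 0.07 without untreated replicate 3 and -0.005 at 48 h. Only SESN2 and NUPR1, a stress-induced nuclear protein (0.31 ± 0.13), passed, and NUPR1 did not without untreated replicate 3 (0.27 ± 0.14). ATF4, the central factor of that response, read 9.87, 10.19 and 10.05 untreated and 10.01, 10.73 and 10.84 treated, a difference of 0.49 ± 0.23 that did not pass. Treated replicate 1 stayed within the untreated range. In platinum handling ATOX1, a copper chaperone (0.37 ± 0.14), and the metallothionein MT1G (0.94 ± 0.36) passed. MT1G read 6.50, 6.69 and 4.97 untreated and 6.72, 6.85 and 7.39 treated, and without untreated replicate 3 neither it (0.39 ± 0.25) nor ATOX1 (0.24 ± 0.13) passed. Of 16 NRF2 targets only ALDH3A1, an aldehyde dehydrogenase, passed (0.28 ± 0.12), and it did not without untreated replicate 3 (0.17 ± 0.10). None of 22 NF-kB and secreted factor genes passed, and 1 of 24 interferon response genes, APOBEC3C, did (0.51 ± 0.18). Oxidative phosphorylation had 4 of 50 higher (8.0%, beside 1.9% of all genes), NDUFA2, UQCRC1, NDUFS6 and NDUFA7, of which NDUFA2 of complex I was the largest (0.36). Without untreated replicate 3 the list kept 1 (2.0%, beside 0.857% of all genes).

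**Figure D4:**
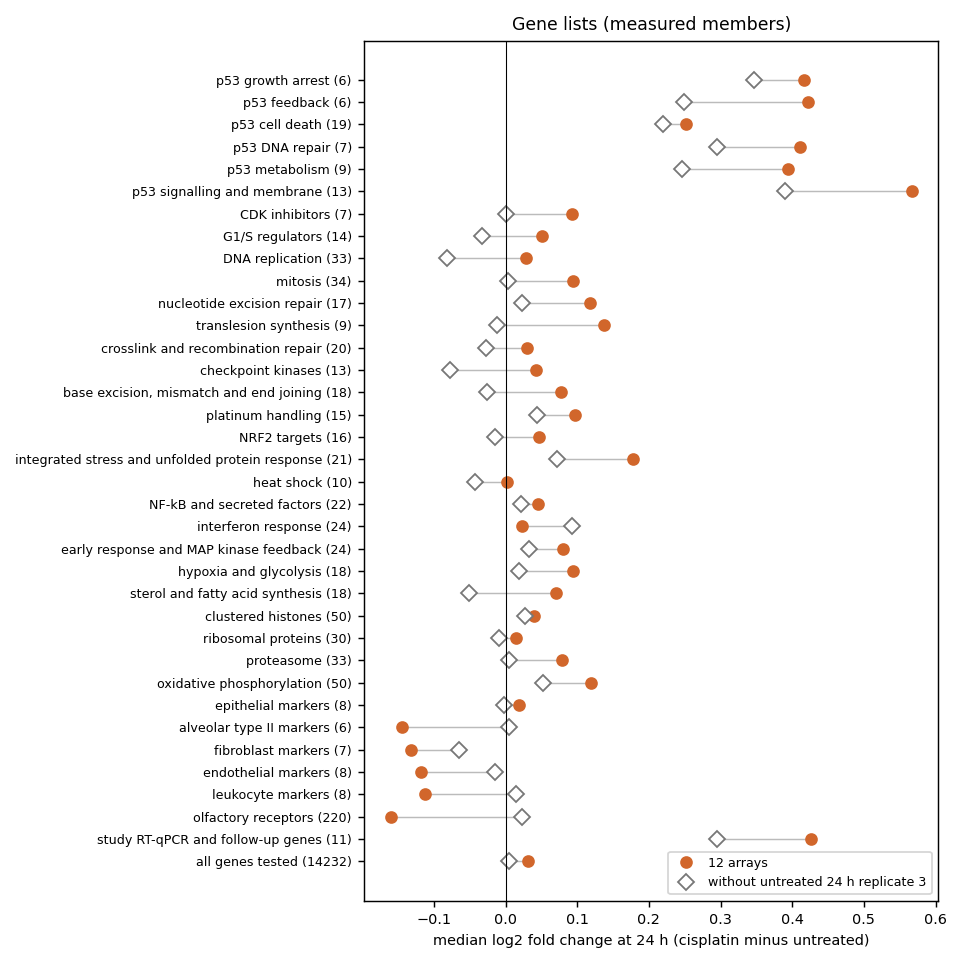
Median log2 fold change at 24 h of each gene list, with the number of measured members in brackets, from 12 arrays (orange circles) and without untreated 24 h replicate 3 (grey diamonds). The 6 p53 lists and the study's follow-up genes lie at 0.22 or above in both fits, and the other lists lie within 0.2 of 0.

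The genes that the study followed by RT-qPCR or in later assays were chosen by its authors from these arrays, so their differences are not independent of that choice. Of 13 such genes listed for this comparison 11 were measured, and the list does not hold every such gene. GDF15 and ACTA2 share their clusters with other symbols. FDXR, also on the study's RT-qPCR list, has no symbol entry of its own in the probe annotation. GDF15, ACTA2 and FDXR were not analysed here. Of the 11, 9 were higher at an unadjusted p under 0.05, and 5 without untreated replicate 3. Outside the p53 lists they included FHL2, a LIM domain cofactor (0.28 ± 0.11, and 0.24 ± 0.11 without untreated replicate 3, which did not pass), and CABYR, a calcium-binding protein best known from sperm (0.44 ± 0.19). CABYR read 9.52, 9.36 and 8.75 untreated and 9.45, 9.78 and 9.73 treated, so the groups overlapped, and it did not pass without untreated replicate 3 (0.21 ± 0.17). DUSP4 and FNTA had differences of 0.24 ± 0.14 and -0.00 ± 0.17 and did not pass.

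The contrasts at 48 h and at 24 h share no array, but the 48 h arrays enter the spread that the fit used to choose the 24 h genes, so their values at 48 h are not fully independent of that choice. With only the 6 arrays of 24 h in the fit, 18 genes were higher at an unadjusted p under 0.005. Of the 32 genes higher at 24 h in the fit of 12 arrays, 31 were also positive at 48 h and 24 were higher at an unadjusted p under 0.05, beside 0.632% of all genes. The median change of the 32 was 0.57 at 24 h and 0.36 at 48 h, and 26 had a smaller effect at 48 h, a direction that choosing them by their 24 h values favours. CDKN1A read 9.91, 9.88 and 9.82 untreated and 10.99, 11.01 and 10.75 treated at 48 h, a change of 1.04 ± 0.15, and the difference of 0.18 between its effects at the 2 times was not past the threshold. FAS was higher by 1.04 at 48 h and 0.91 at 24 h, which was not a difference past the threshold either. Of the 5 lower genes, 3 were negative at 48 h, and MC4R passed an unadjusted p under 0.05 (-0.70 ± 0.31).

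The difference between the 24 h and 48 h effects passed an adjusted p under 0.05 for 0 genes (limma), and 163 genes (1.15%) passed an unadjusted p under 0.05. None of the 60 p53 list members was among these. Of the 37 genes past an unadjusted p under 0.005 at 24 h, 7 were. Choosing genes by their 24 h effect, which is part of this difference, favours such a count. Among the 37, TRDN and H2BC10 had the smallest p for the difference. TRDN, higher at 24 h with values of 6.50, 5.56 and 6.31 untreated and 6.92, 6.88 and 7.13 treated, read 6.96, 7.06 and 7.15 untreated and 6.43, 6.49 and 7.05 treated at 48 h, a difference of 1.26 between the effects. H2BC10, lower at 24 h, was higher at 48 h, with 3.45, 3.37 and 3.38 untreated and 4.66, 4.79 and 4.34 treated, a difference of -2.86 between the effects. Both lie in the lowest of 4 equal bins of genes by signal, and the adjusted p of either difference was 1.

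**Figure D5:**
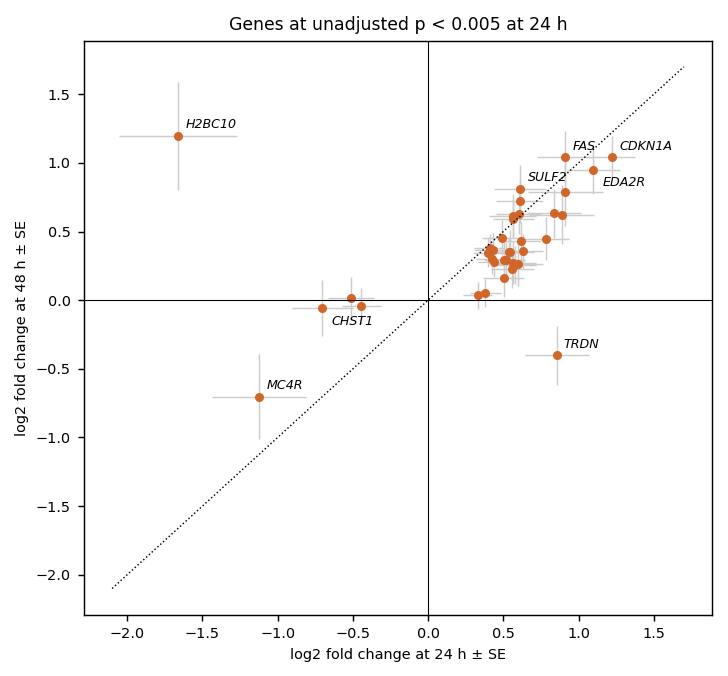
Log2 fold change at 48 h against that at 24 h, each ± SE, for the 37 genes at an unadjusted p under 0.005 at 24 h; the dotted line marks equal effects. The higher genes lie between the line and the horizontal axis or near the line, except TRDN, and H2BC10 has opposite signs at the 2 times.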

How the data were processed

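RNA of A549 cells was hybridised to 12 Affymetrix exon arrays, 3 for each of untreated and cisplatin-treated cells at 24 h and 48 h. Per the submitters' processing notes, the authors used Affymetrix Power Tools and Expression Console, and they deposited log2 values normalised by RMA, a method that corrects background and equalises array distributions, per transcript cluster. Tool versions are not given in the sources used here, and precision is limited by how many arrays there are. Of 22011 clusters, 14432 pair with 1 symbol, and the brightest cluster of each gene was kept, since 197 genes had several. The remaining 2408 clusters pair with several symbols, among them those of the known p53 targets GDF15 and ACTA2, and were not analysed here, and 5171 are not in the probe annotation. R 4.3.3 and limma 3.58.1 were used to fit 4 group means on all 12 arrays, with Benjamini-Hochberg adjustment over 14232 genes. The difference between the effects at 24 h and 48 h was a contrast of the same fit. The procedure was tested on data simulated with independent noise for each gene. No simulated array stood apart, so that test does not cover this feature of the arrays. The members and the 35 gene lists were chosen with earlier results of these data known, and lists are described by counts and medians without a test. Genes are named if they passed an adjusted p under 0.05, were among the 15 higher or 10 lower genes with the smallest p and groups that do not overlap, were among the 4 members of a list with the smallest p, or belong to the p53 lists or the study's follow-up genes; others are said to be chosen after their values were seen. Alternatives left out each array, used other weights, scalings, filters and thresholds, or took the replicate number as a block.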

Additional observations from a re-analysis of the deposited data

How the results depend on the processing

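The array weights of limma moved the counts most: 2254 genes passed an adjusted p under 0.05, and 957 genes were higher and 899 were lower at the study's threshold of an unadjusted p under 0.005, but the estimate stopped before it converged and gave untreated 24 h replicate 2 a weight of 17.4. Weights estimated gene by gene, added after seeing the data, gave 11, 148 and 71, and 1 gene for the difference between 24 h and 48 h in place of 0. With only the 6 arrays of 24 h no gene passed the adjusted threshold and 18 were higher at an unadjusted p under 0.005. An intensity trend with robust variances gave 2 adjusted calls and 3 lower genes, genes above the median level gave 2 and 0, and all transcript clusters gave 0 and 21. Quantile normalization gave 9 lower genes. At unadjusted p under 0.05 and under 0.001 the higher genes numbered 271 and 10 and the lower genes 165 and 1. The causes were not tested.

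Leaving out 1 array at a time gave 0 to 3 adjusted calls, 12 to 75 higher and 1 to 66 lower genes, 0 to 1 gene for the difference between the times, 15 to 26 of the 32 genes higher again at 48 h, and 25 to 39 of the 60 p53 list members higher with an unadjusted p under 0.05. The fewest higher genes came without cisplatin 24 h replicate 3 and the most without untreated 24 h replicate 1. The 15 came without untreated 48 h replicate 3. Every other alternative run on the p53 lists gave between 30 and 43 members. All 32 higher genes stayed at an unadjusted p under 0.05 with any array left out, and 8 of them stayed under 0.005.

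Without untreated 24 h replicate 3, the 1 adjusted call and the 22 genes at an unadjusted p under 0.005 became 4 and 142 with array weights, and 65 of the latter with weights gene by gene. The adjusted call was lost with only the 5 remaining arrays of 24 h (0). Leaving out a further array, also added after seeing the data, gave 0 to 1 and 7 to 36, the fewest without untreated 24 h replicate 2. The replicate number as a block gave 3 lower genes with 12 arrays, and 0 adjusted calls and 35 genes without untreated 24 h replicate 3. The deviations of same-numbered arrays of 24 h from their group means had correlations of -0.34, 0.21 and -0.39. With 3 arrays per group, 1 of which stands apart, these values do not show whether same-numbered arrays share an experiment. Of 51 genes followed through the alternatives none was called reversed. Not every gene named here kept its sign: E2F7 of the p53 lists went from 0.17 to -0.01 without untreated 24 h replicate 3, and MDM4 also changed sign in that fit.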

Other observations

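The fit without untreated 24 h replicate 3 placed 2 genes at an unadjusted p under 0.005 that the fit on 12 arrays did not. TPI1, the glycolytic triosephosphate isomerase, read 5.22, 5.21 and 6.25 in the untreated and 5.83, 6.09 and 6.21 in the cisplatin arrays, and its log2 change was 0.82 ± 0.20 (SE) without that array and 0.48 ± 0.26 with it. G0S2, an inhibitor of triglyceride breakdown chosen here after its values were seen, differed by 0.37 ± 0.12 with 12 arrays and by 0.44 without untreated replicate 3. Neither passed the adjusted threshold.

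Transcript clusters outside the gene comparison also held differences at 24 h. Of the 2408 clusters paired with several symbols, 5 were higher and 3 were lower at the study's threshold of an unadjusted p under 0.005, and of the 5171 clusters that the probe annotation does not list, 9 were higher and 16 lower. None passed an adjusted p under 0.05 in limma over all clusters, while at an unadjusted p under 0.05 there were 37 and 113 higher and 45 and 154 lower. They are not named here.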
